A study of Homo sapiens with 6 samples.

Results

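The genes described here are the collagen chains, the laminin chains, the lysyl oxidases that crosslink collagen, the lysyl hydroxylases that prepare it for crosslinking, and the fibrillins. They were chosen by symbol alone, as the protein-coding genes of the COL, LAMA, LAMB, LAMC, LOX, LOXL and PLOD families with FBN1 and FBN2. No measured value entered this rule, but earlier results of these data were known when it and the gene lists below were chosen. The rule gave 66 of the 39323 genes in the deposited count table. MDA-MB-231, an established human triple-negative breast cancer cell line, received an siRNA targeting SF3B6 (siSF3B6, 3 libraries) or a non-targeting control siRNA (siNC, 3 libraries). A single siRNA sequence stands for the SF3B6 knockdown, and all 6 libraries come from transfected cells. The titles name MDA-MB-231 for every library, whereas the cell line field of the sample records gives that name for siSF3B6 library 1 alone and a different, consecutively numbered name for each of the others; the titles were followed. SF3B6 encodes a small subunit of the SF3b complex, the part of the U2 spliceosomal particle that recognises the branch point before an exon is joined. Libraries of polyadenylated RNA kept the strand of each fragment.

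Collagens are trimers of chains wound into a triple helix: fibrillar collagens build fibres, type IV collagen builds the sheet of basement membranes, and other classes sit on fibrils, span the cell membrane or anchor epithelia. Laminins are heterotrimers of an alpha, a beta and a gamma chain that join cells to the basement membrane through integrins. Lysyl hydroxylases modify collagen lysines inside the cell, and lysyl oxidases then oxidise lysines outside it, which starts the crosslinks that stiffen tumour matrix. Fibrillins form the microfibrils on which elastic fibres are laid down.

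Reads counted to genes were 28504091 to 38546037 per library. SF3B6 itself had 22.5, 25 and 21.3 CPM in siSF3B6 libraries, against 86.4, 80.5 and 102 CPM in siNC libraries, which left 25.6% of the control level (log2 fold change -1.96, SE 0.1, edgeR adjusted p = 1.43e-07). CPM here are counts relative to library totals, on the usual CPM scale, after scaling by trimmed means (TMM). The labels do not say whether replicates were separate cultures, so a p-value here covers only library-to-library spread, which may be technical. Mesenchymal markers of the line were present (VIM, CD44 and AXL were all abundant), except that TWIST1 had 0 to 2 reads per library. ESR1 and PGR were near 0, although the epithelial gene CLDN4 was expressed at 19.6 to 24.1 FPKM in siSF3B6 libraries and 24.7 to 27.5 FPKM in siNC libraries.

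The libraries did not all stand with their labels' group, which bears on the members below. Mitochondrially encoded genes took 10.6 to 11.8% of reads in siSF3B6 libraries, against 3.38, 3.93 and 9.07% in siNC libraries 1, 2 and 3, so siNC library 3 was nearer to the siSF3B6 libraries. Genes with 1 to 9 reads numbered 7877 to 8325 in siSF3B6 libraries, against 13952, 14956 and 7731 in siNC libraries. The 66 members together took 0.335, 0.323 and 0.319% of reads in siSF3B6 libraries, against 0.367, 0.367 and 0.310% in siNC libraries, again with siNC library 3 on the siSF3B6 side. The second siSF3B6 library also held more reads of some stromal genes than any other library, which is described with the low collagens.

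Of the 66 members, 46 had enough reads to be tested, in a fit over 16869 genes (edgeR quasi-likelihood test with Benjamini-Hochberg adjustment over all of them, adjusted p under 0.05). Members called higher in siSF3B6 numbered 11, or 23.9% of those tested, beside 20.8% of all genes called higher. Members called lower numbered 7, or 15.2%, beside 20.0% of all genes. Together 18 members were called, where 40.8% of all genes were, and the siSF3B6 and siNC libraries did not overlap for 23 of the 46, or 50%, beside 52.1% of all genes. The median log2 fold change was -0.01 over the members and 0.00 over all genes tested. As a class, then, the members moved about as often as other genes, and the results lie in which chains and enzymes went which way.

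**Figure D1:**
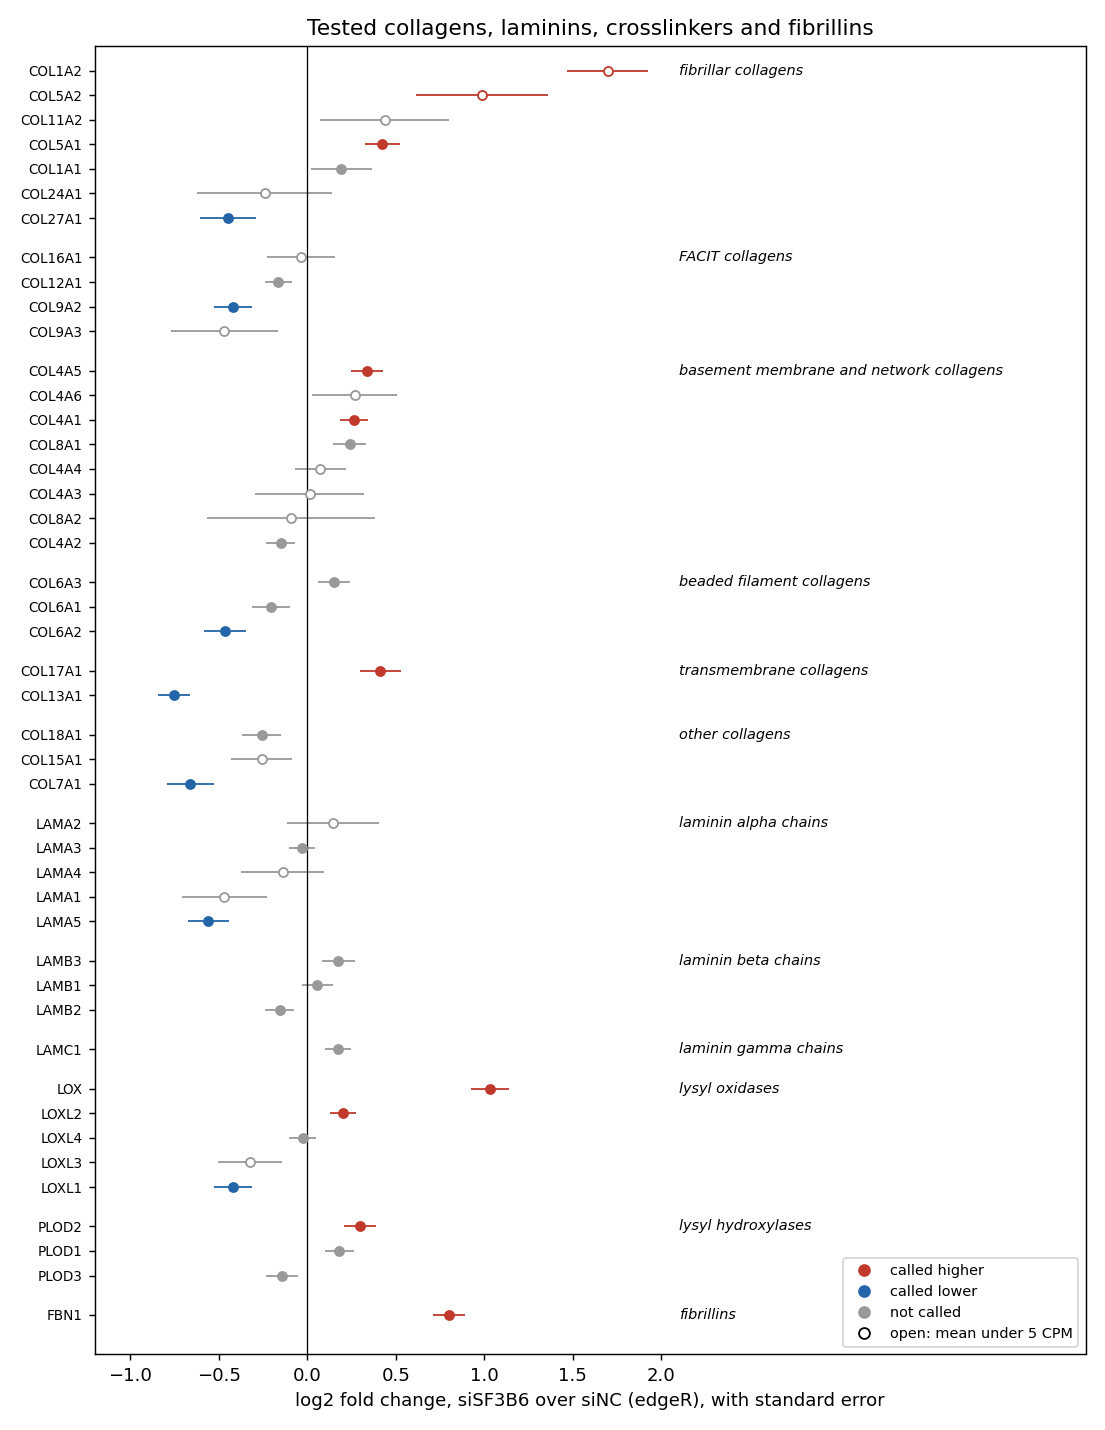
Log2 fold change of siSF3B6 over siNC (horizontal axis) for 45 of the 46 tested members, grouped by family, with bars of 1 standard error from the edgeR fit. Red points were called higher, blue points called lower and grey points not called, and open points have a mean under 5 CPM; LOX and FBN1 lie to the right and COL13A1, COL7A1 and LAMA5 to the left.

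These counts depend on the scaling and on single libraries. Scaling by library size only, which moved the median of all genes to -0.10, gave 5 members higher and 12 lower, and an offset for transcript GC content and length gave 14 higher and 4 lower. The 11 higher calls became 7 without siSF3B6 library 1, 6 without siNC library 1 and 7 without siNC library 2. With siNC library 3 as the lone control, 5 members were called higher and 2 lower. COL13A1, FBN1, LOX, COL5A1 and COL1A2 kept their calls in every alternative in which they could be fitted, and no called member changed direction in any.

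Among the lysyl oxidases, LOX rose and LOXL2 rose slightly, LOXL1 fell, and LOXL3 and LOXL4 were not called. LOX, the enzyme that oxidises lysines of collagen and elastin (GRCh38 chr5:122063195-122078360, minus strand), had 122, 119.5 and 147 CPM in siSF3B6 libraries, against 59.4, 57.7 and 72.6 CPM in siNC libraries. Every siSF3B6 library lay above every siNC library, and the third was the highest of its group in both (log2 fold change 1.03, SE 0.11, edgeR adjusted p = 1.3e-05). The nearest bases before the first annotated exon of LOX are shown because it had the largest change among the well-covered members; they are RefSeq sequence of GRCh38.p14 at chr5:122078361-122078509, minus strand, 5′ to 3′, with ACGTG, the core of the hypoxia response element, and CCAAT in capitals where found on either strand.
LOX: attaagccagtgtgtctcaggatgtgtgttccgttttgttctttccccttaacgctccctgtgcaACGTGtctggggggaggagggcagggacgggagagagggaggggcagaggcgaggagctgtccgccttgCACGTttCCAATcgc

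LOXL2, which acts on type IV collagen among other substrates, had 329, 314 and 299.8 CPM in siSF3B6 libraries, against 272, 277 and 271 CPM in siNC libraries. The groups did not overlap, but the difference was small (log2 fold change 0.20, SE 0.076, edgeR adjusted p = 0.0465). The call was lost without siSF3B6 library 1 (log2 fold change 0.16, edgeR adjusted p = 0.202), without siSF3B6 library 2 (0.21, adjusted p = 0.118), without siNC library 1 (0.20, adjusted p = 0.15) and without siNC library 2 (0.21, adjusted p = 0.122). It was also lost with library size only, where the log2 fold change was 0.10 (adjusted p = 0.359), without the low-count filter (0.20, adjusted p = 0.12) and by limma on log2(FPKM + 1) (0.14, adjusted p = 0.111) and log2(FPKM + 0.1) (0.15, adjusted p = 0.111). LOXL1, the lysyl oxidase that works on elastic fibres, had 9.84, 10.5 and 8.53 CPM in siSF3B6 libraries, against 13.1, 13 and 12.5 CPM in siNC libraries. All siSF3B6 values were below all siNC values (log2 fold change -0.42, SE 0.11, edgeR adjusted p = 0.00689), and with the GC and length offset the log2 fold change was -0.07 (edgeR adjusted p = 0.562). An antisense gene, LOXL1-AS1, overlaps 9.21% of the exonic bases of LOXL1, and whether the counting used strand is not given in the sources used here. LOXL4, another member of the family, had 60.7, 60.7 and 57.8 CPM in siSF3B6 libraries, against 59.9, 60.003 and 62.5 CPM in siNC libraries, and these ranges overlapped (log2 fold change -0.03, edgeR adjusted p = 0.817). LOXL3, at a mean of 2.51 CPM, had a log2 fold change of -0.32 (edgeR adjusted p = 0.165), and 14.3% of its exonic bases are shared with HTRA2 on the other strand.

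Among the lysyl hydroxylases, PLOD2 was called higher. PLOD2, which hydroxylates the lysines at the ends of collagen chains, had 133, 123 and 154 CPM in siSF3B6 libraries, against 118, 104 and 110.1 CPM in siNC libraries. The siSF3B6 values lay above the siNC values, the lowest of them close to the highest control (log2 fold change 0.30, SE 0.092, edgeR adjusted p = 0.0191). This call was lost without siSF3B6 library 3 (log2 fold change 0.20, edgeR adjusted p = 0.0522) and without siNC library 2 (0.26, adjusted p = 0.0969), and with the GC and length offset the log2 fold change was 0.07 (adjusted p = 0.385). With library size only it was 0.20 (adjusted p = 0.124), and limma on log2(FPKM + 1) and log2(FPKM + 0.1) gave 0.23 and 0.24 (adjusted p = 0.0723 and 0.0736). The GC and length offset used the longest annotated transcript, which for PLOD2 has 4 exons and does not encode the whole chain. PLOD1, which hydroxylates lysines within the helix, had 152, 146 and 131 CPM in siSF3B6 libraries, against 125, 132 and 121 CPM in siNC libraries (log2 fold change 0.18, edgeR adjusted p = 0.0924). PLOD1 was called higher once GC content and length were offset (0.35, adjusted p = 8.94e-05). PLOD3, which also adds sugars to hydroxylysine, had 155, 156 and 133 CPM in siSF3B6 libraries, against 166, 176 and 149 CPM in siNC libraries, and the groups overlapped (log2 fold change -0.14, edgeR adjusted p = 0.22). The 250 bases before the start of PLOD2 (chr3:146161185-146161434, minus strand, RefSeq, GRCh38.p14) are shown beside those of LOX because both hold CCAAT and ACGTG, in capitals with the GC box GGGCGG, on either strand.
PLOD2: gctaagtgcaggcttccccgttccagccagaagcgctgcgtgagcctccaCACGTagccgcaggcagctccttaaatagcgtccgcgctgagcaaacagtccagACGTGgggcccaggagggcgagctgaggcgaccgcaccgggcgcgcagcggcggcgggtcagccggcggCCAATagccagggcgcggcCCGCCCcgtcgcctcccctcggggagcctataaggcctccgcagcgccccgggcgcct

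FBN1 rose and FBN2 was too low to test. FBN1, the main fibrillin of microfibrils (chr15:48408306-48645849, minus strand), had 42.5, 38.2 and 42.3 CPM in siSF3B6 libraries, against 22.1, 22.7 and 25.8 CPM in siNC libraries. The lowest siSF3B6 library was well above the highest siNC library (log2 fold change 0.80, SE 0.092, edgeR adjusted p = 2.77e-05). FBN2, a fibrillin of developing tissue, had 4, 6 and 4 reads in siSF3B6 libraries, against 3, 6 and 3 reads in siNC libraries.

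**Figure D2:**
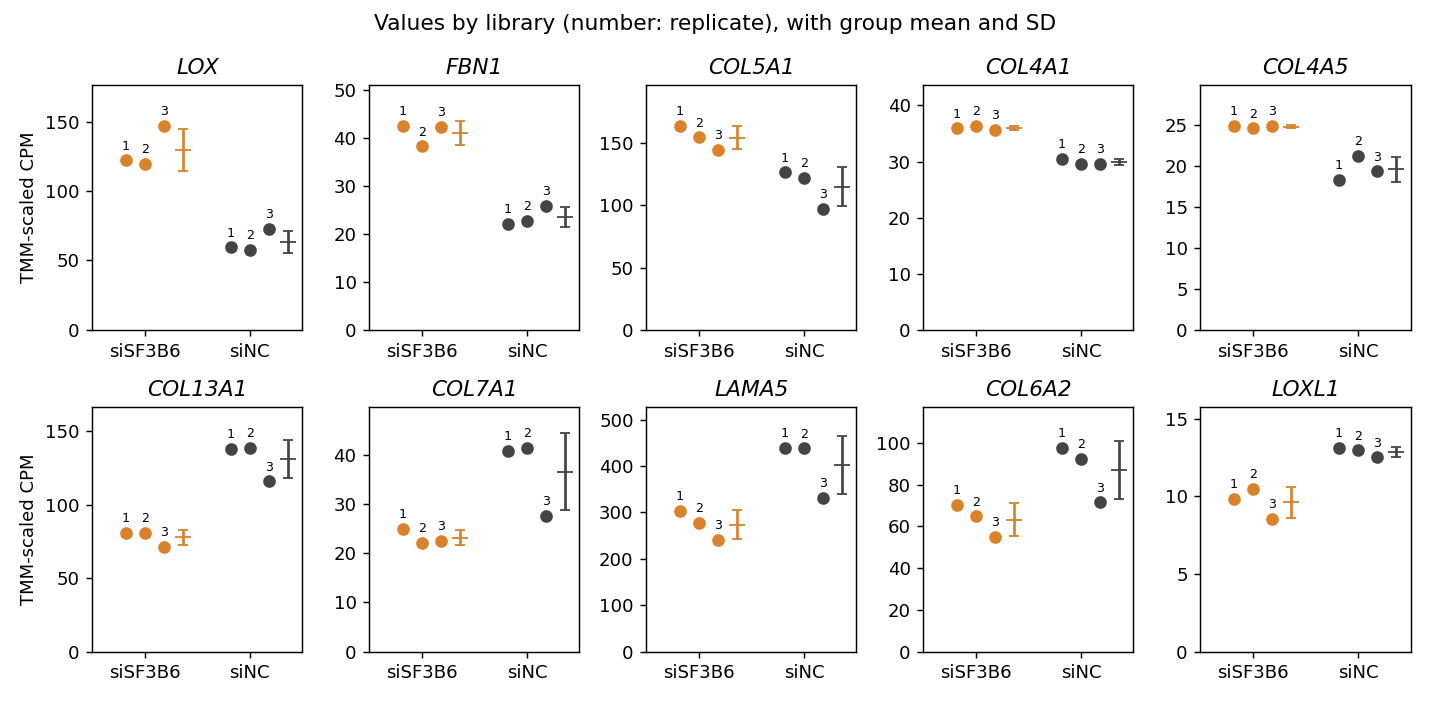
TMM-scaled CPM (vertical axes, from 0) in each siSF3B6 library (left, orange) and siNC library (right, dark) for 10 called members, numbered by replicate, with the group mean and SD beside the points. LOX, FBN1, COL5A1, COL4A1 and COL4A5 are higher in every siSF3B6 library, and for COL7A1, LAMA5, COL6A2 and COL13A1 siNC library 3 is the lowest control.

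Among the 11 fibrillar collagens 7 were tested: 3 were called higher, 1 lower and 3 not called. COL5A1, the chain of type V collagen that limits fibril diameter (chr9:134641774-134844843, plus strand), had 164, 154 and 145 CPM in siSF3B6 libraries, against 126, 122 and 96.8 CPM in siNC libraries. The groups did not overlap, with siNC library 3 the lowest of all (log2 fold change 0.42, SE 0.099, edgeR adjusted p = 0.00398). COL27A1, a fibrillar collagen of cartilage, had 6.81, 5.69 and 4.28 CPM in siSF3B6 libraries, against 7.82, 8.38 and 6.7 CPM in siNC libraries. The highest siSF3B6 value lay inside the control range, so the groups overlapped although the gene was called lower (log2 fold change -0.45, SE 0.16, edgeR adjusted p = 0.0374). That call was lost without siSF3B6 library 2 (log2 fold change -0.46, edgeR adjusted p = 0.0674), without siSF3B6 library 3 (-0.30, adjusted p = 0.119), without siNC library 1 (-0.43, adjusted p = 0.0901), without siNC library 2 (-0.38, adjusted p = 0.131) and with the GC and length offset (-0.26, adjusted p = 0.105).

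Type I collagen is a trimer of COL1A1 and COL1A2 chains, and both were scarce in these cells. COL1A2 had 159, 267 and 114 reads in the siSF3B6 libraries, against 60, 52 and 48 reads in the siNC libraries. Every siSF3B6 library held more than any control, with the second the highest (TMM-scaled means 5.46 ± 1.75 CPM in siSF3B6 libraries and 1.69 ± 0.249 CPM in siNC libraries, SD, n = 3 each; log2 fold change 1.70, SE 0.23, edgeR adjusted p = 9.16e-05). Without siSF3B6 library 2 the log2 fold change was 1.44 (edgeR adjusted p = 0.000157). COL1A1 had 211, 310 and 182 reads in the siSF3B6 libraries, against 222, 215 and 158 reads in the siNC libraries, and these overlapped (log2 fold change 0.19, edgeR adjusted p = 0.395; 0.06, adjusted p = 0.82, without siSF3B6 library 2; 0.39, adjusted p = 0.0307, when offset for GC content and length).

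COL5A2, the partner chain of COL5A1, was near the limit of the data, with a mean of 0.516 CPM. It had 17, 35 and 16 reads in the siSF3B6 libraries, against 7, 14 and 12 reads in the siNC libraries (log2 fold change 0.99, SE 0.37, edgeR adjusted p = 0.0485). Leaving out any 1 of the 6 libraries ended its call: the adjusted p was 0.0654, 0.264 and 0.0507 without siSF3B6 libraries 1, 2 and 3, and 0.188, 0.0509 and 0.08 without siNC libraries 1, 2 and 3. The log2 fold changes in those fits ran from 0.66 to 1.23. COL5A2 was also not called by DESeq2 (adjusted p = 0.0993), limma-voom (0.0503), library size only (0.0724) or edgeR without the low-count filter (0.0532), and 3 of 16 alternatives called it. The other tested fibrillar chains were COL11A2 (0.44) and COL24A1 (-0.24), both under 1 CPM and neither called.

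Reads of some other stromal genes moved with the scarce fibrillar collagens in siSF3B6 library 2. COL3A1, the type III collagen of vessels and skin, had 6, 104 and 4 reads in siSF3B6 libraries, against 5, 5 and 5 reads in siNC libraries. COL14A1, a collagen that sits on fibrils, had 0, 19 and 0 reads in siSF3B6 libraries, against 4, 5 and 0 reads in siNC libraries. The second siSF3B6 library held the most reads of both, and neither passed the low-count filter. In the fit without that filter COL3A1 was called higher (log2 fold change 2.77, edgeR adjusted p = 1.5e-10), with siSF3B6 libraries 1 and 3 at control level, and COL14A1 was not called (0.91, adjusted p = 0.49). The small proteoglycan BGN had 0, 40 and 0 reads in siSF3B6 libraries, against 0, 2 and 0 in siNC libraries, and the smooth muscle gene MYH11 had 5, 64 and 15, against 14, 14 and 4. The 10 fibroblast and smooth muscle markers summed to 2.74, 4.48 and 2.80 FPKM in siSF3B6 libraries, against 2.75, 2.47 and 2.64 FPKM in siNC libraries, with 1 or 2 of them listed at 0 in each siSF3B6 library and 0 to 3 in each siNC library. The part of these reads in COL1A2 and COL5A2 was not tested beyond leaving that library out, and in bulk RNA fewer cells of a type and less RNA per cell cannot be told apart.

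The other untested members were lower still. The 20 untested members had 1 to 129 reads each over all 6 libraries, and 10 of them had under 10. COL21A1, which sits on fibrils, had 10, 20 and 8 reads in siSF3B6 libraries, against 6, 6 and 1 in siNC libraries, and without the filter it was called higher (log2 fold change 1.46, edgeR adjusted p = 0.0484); the other untested members were not called there apart from COL3A1. Apart from COL3A1, COL14A1 and COL21A1, no untested member exceeded 8 reads in any library. Of the 20, 11, 6 and 12 had no read in siSF3B6 libraries 1, 2 and 3, against 3, 2 and 12 in siNC libraries 1, 2 and 3, which follows the counts of genes with 1 to 9 reads given above. The 20 were COL3A1, COL2A1, COL5A3 and COL11A1 among the fibrillar chains; COL9A1, COL14A1, COL19A1, COL20A1, COL21A1 and COL22A1 on fibrils; COL10A1; COL6A5 and COL6A6; COL23A1 and COL25A1; COL26A1 and COL28A1; LAMB4; LAMC3; and FBN2.

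Among the 8 tested basement membrane and network collagens, 2 were called higher and 6 were not called. COL4A1, a chain of the ubiquitous type IV network, had 35.9, 36.4 and 35.6 CPM in siSF3B6 libraries, against 30.5, 29.6 and 29.6 CPM in siNC libraries. The values were tight within each group and did not overlap (log2 fold change 0.27, SE 0.079, edgeR adjusted p = 0.0159). The call was nonetheless lost without siSF3B6 library 1 (edgeR adjusted p = 0.0574), siSF3B6 library 2 (0.0582), siNC library 1 (0.0531) or siNC library 2 (0.0701), at log2 fold changes of 0.26 to 0.28. It was lost at smaller log2 fold changes with library size only (0.16, adjusted p = 0.15) and by limma on log2(FPKM + 1) (0.14, adjusted p = 0.0721) and log2(FPKM + 0.1) (0.20, adjusted p = 0.0692). COL4A2, whose chain joins COL4A1 chains in the same trimer and whose gene starts 127 bases away on the other strand, had 131, 126 and 109.9 CPM in siSF3B6 libraries, against 141, 133 and 133 CPM in siNC libraries. These did not overlap either, in the opposite direction, but COL4A2 was not called (log2 fold change -0.15, edgeR adjusted p = 0.167), and its direction turned with the GC and length offset (0.06).

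COL4A5, the X-linked type IV chain that is mutated in Alport syndrome, had 24.8, 24.6 and 24.9 CPM in siSF3B6 libraries, against 18.2, 21.2 and 19.3 CPM in siNC libraries. All siSF3B6 libraries were alike and above all controls (log2 fold change 0.34, SE 0.089, edgeR adjusted p = 0.00826). The call was lost without siNC library 1 (log2 fold change 0.29, edgeR adjusted p = 0.0589) and with library size only (0.23, adjusted p = 0.0649). Its divergent neighbour COL4A6, with a start 380 bases away, averaged 1.35 CPM and was not called (log2 fold change 0.27, edgeR adjusted p = 0.404). The bases between these divergent starts that precede COL4A5 (chrX:108439588-108439837, plus strand, RefSeq, GRCh38.p14) are shown with CCAAT, on either strand, in capitals.
COL4A5: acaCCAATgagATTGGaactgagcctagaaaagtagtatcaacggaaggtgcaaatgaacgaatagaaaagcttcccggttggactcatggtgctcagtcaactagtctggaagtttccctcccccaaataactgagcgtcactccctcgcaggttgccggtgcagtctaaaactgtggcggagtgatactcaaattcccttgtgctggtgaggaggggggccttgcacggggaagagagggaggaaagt

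COL8A1, a short-chain collagen of vessel walls and the cornea, had 65.4, 69.5 and 68.8 CPM in siSF3B6 libraries, against 52.3, 54.7 and 65.5 CPM in siNC libraries. A control, siNC library 3, reached the siSF3B6 range and the gene missed the threshold (log2 fold change 0.24, edgeR adjusted p = 0.0527). Without siNC library 3 it was called higher (0.35, adjusted p = 0.00365). COL4A3 (0.01), COL4A4 (0.07) and COL8A2 (-0.09) were all under 5 CPM and not called.

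Among the beaded filament collagens of type VI, COL6A2 fell while COL6A1 and COL6A3 were not called. COL6A2, 1 of the 3 chains of the main type VI trimer, had 70.2, 64.8 and 54.8 CPM in siSF3B6 libraries, against 97.8, 92.3 and 71.5 CPM in siNC libraries. The highest siSF3B6 library was just below the lowest control, siNC library 3 (log2 fold change -0.46, SE 0.12, edgeR adjusted p = 0.00682). With siNC library 3 as the lone control the log2 fold change was -0.18 (edgeR adjusted p = 0.422), and with the GC and length offset it was -0.14 (adjusted p = 0.0819). COL6A1, which lies beside it on chromosome 21, had 148, 139 and 124 CPM in siSF3B6 libraries, against 169, 173 and 131 CPM in siNC libraries (log2 fold change -0.20, edgeR adjusted p = 0.139), or -0.32 (adjusted p = 0.00817) without siNC library 3. COL6A3, the longest chain of the trimer, had 26.7, 25.4 and 25.1 CPM in siSF3B6 libraries, against 24.9, 23.2 and 21.4 CPM in siNC libraries (log2 fold change 0.15, edgeR adjusted p = 0.192).

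The transmembrane collagens went in opposite directions. COL13A1, a transmembrane collagen of cell adhesion sites (chr10:69801867-69964275, plus strand), had 81, 80.8 and 71.5 CPM in siSF3B6 libraries, against 138, 139 and 116 CPM in siNC libraries. The groups were far apart, with every siSF3B6 library below every control (log2 fold change -0.75, SE 0.091, edgeR adjusted p = 4.07e-05). With siNC library 3 as the lone control its log2 fold change was -0.58 (edgeR adjusted p = 0.00905). COL17A1, the transmembrane collagen of hemidesmosomes, had 9.67, 9.02 and 8.37 CPM in siSF3B6 libraries, against 6.25, 7.22 and 6.85 CPM in siNC libraries. All siSF3B6 values were above all siNC values (log2 fold change 0.41, SE 0.12, edgeR adjusted p = 0.0119), and the call was lost without siSF3B6 library 1 (log2 fold change 0.36, edgeR adjusted p = 0.0603) or siNC library 1 (0.36, adjusted p = 0.0631), and with library size only (0.31, adjusted p = 0.0508).

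COL7A1 and COL9A2 fell. COL7A1, which forms the anchoring fibrils beneath epithelia (chr3:48564073-48595267, minus strand), had 24.9, 22 and 22.5 CPM in siSF3B6 libraries, against 40.7, 41.5 and 27.6 CPM in siNC libraries. The third control, siNC library 3, was closer to the knockdown values than to the other two controls (log2 fold change -0.66, SE 0.13, edgeR adjusted p = 0.00152). Against siNC library 3 alone the log2 fold change was -0.26 (edgeR adjusted p = 0.218), and the call held without any 1 library (-0.83 to -0.56). COL9A2, a chain of the collagen that decorates cartilage fibrils, had 16, 16.3 and 12.9 CPM in siSF3B6 libraries, against 19.5, 22.1 and 19 CPM in siNC libraries, with no overlap (log2 fold change -0.42, SE 0.11, edgeR adjusted p = 0.00735). Its log2 fold change was -0.13 (edgeR adjusted p = 0.164) once GC content and length were offset.

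COL12A1 and COL18A1 were abundant and not called. COL12A1, which binds the surface of type I fibrils, had 70.3, 70.6 and 74.5 CPM in siSF3B6 libraries, against 81.9, 79.2 and 80.0 CPM in siNC libraries (log2 fold change -0.16, edgeR adjusted p = 0.0952). All siSF3B6 values were below the controls, and the gene was called lower with the GC and length offset (-0.23, adjusted p = 0.00197). COL18A1, the source of the fragment endostatin, had 171, 163 and 139 CPM in siSF3B6 libraries, against 199.8, 210.2 and 156 CPM in siNC libraries (log2 fold change -0.26, edgeR adjusted p = 0.0787), or -0.37 (adjusted p = 0.00457) without siNC library 3; 16.4% of its exonic bases are shared with SLC19A1 on the other strand. COL9A3 (-0.47), COL16A1 (-0.03) and COL15A1 (-0.26) were under 5 CPM and not called.

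Of the 12 laminin chains 10 were tested, and LAMA5 was called lower. LAMB3, a beta chain of epithelial basement membranes, had 247, 235 and 208 CPM in siSF3B6 libraries, against 221, 209 and 181 CPM in siNC libraries, and the lowest siSF3B6 value lay inside the control range (log2 fold change 0.17, edgeR adjusted p = 0.154; 0.33, adjusted p = 0.000469, when offset for GC content and length). LAMA3, an alpha chain of epithelial basement membranes, had 60.7, 59.6 and 60.8 CPM in siSF3B6 libraries, against 60.6, 62 and 62.1 CPM in siNC libraries, in overlapping ranges (log2 fold change -0.03, edgeR adjusted p = 0.782). Neither was called.

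LAMA5, the alpha chain of the laminins found in most adult basement membranes (chr20:62307955-62367312, minus strand), had 302, 277 and 241 CPM in siSF3B6 libraries, against 439.9, 438 and 331 CPM in siNC libraries. The groups did not overlap, and siNC library 3 lay between the other controls and the siSF3B6 libraries (log2 fold change -0.56, SE 0.12, edgeR adjusted p = 0.00179). Against siNC library 3 alone the log2 fold change was -0.28 (edgeR adjusted p = 0.169), and without any 1 library it was -0.68 to -0.48 and called. The bases before the starts of LAMA5 (chr20:62367313-62367562, minus strand) and COL7A1 (chr3:48595330-48595579, minus strand), both from RefSeq on GRCh38.p14, are shown as examples of members called lower, with GGGCGG on either strand in capitals.
LAMA5: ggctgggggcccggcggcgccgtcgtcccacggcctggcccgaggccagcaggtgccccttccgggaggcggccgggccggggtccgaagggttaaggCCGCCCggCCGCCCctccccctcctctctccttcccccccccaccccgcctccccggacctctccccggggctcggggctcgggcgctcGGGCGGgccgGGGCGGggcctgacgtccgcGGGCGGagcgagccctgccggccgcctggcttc
COL7A1: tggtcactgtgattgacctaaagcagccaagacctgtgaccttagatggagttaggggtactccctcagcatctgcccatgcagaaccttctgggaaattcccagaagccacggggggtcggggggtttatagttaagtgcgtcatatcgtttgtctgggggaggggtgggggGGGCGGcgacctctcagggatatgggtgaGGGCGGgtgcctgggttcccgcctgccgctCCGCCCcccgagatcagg

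The partners of LAMA5 were not called. LAMB1, a beta chain of widespread laminins, had 136, 128 and 158 CPM in siSF3B6 libraries, against 138, 134 and 133 CPM in siNC libraries (log2 fold change 0.06, edgeR adjusted p = 0.629). LAMB2, a beta chain of kidney and synaptic basement membranes, had 197, 194 and 169.6 CPM in siSF3B6 libraries, against 211, 215 and 199 CPM in siNC libraries (log2 fold change -0.16, edgeR adjusted p = 0.145). LAMC1, the gamma chain of most laminins, had 267, 258 and 285 CPM in siSF3B6 libraries, against 241, 233 and 244 CPM in siNC libraries (log2 fold change 0.17, edgeR adjusted p = 0.0813). LAMB1 and its controls overlapped, while LAMB2 was lower and LAMC1 higher in every siSF3B6 library without passing the threshold. LAMA1 (-0.47), LAMA2 (0.15) and LAMA4 (-0.14) were all under 5 CPM and not called; LAMA1 was called lower in 1 of the alternatives run, against siNC library 3 alone (-0.91), and an antisense gene overlaps 10.3% of its exonic bases.

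On a per-length scale, 26 of the members described here had a mean of at least 1 FPKM, the authors' length- and depth-scaled unit, in siNC libraries. LOXL2 was highest in both groups, with 43.3 ± 2.05 FPKM in siSF3B6 libraries and 39.1 ± 0.219 FPKM in siNC libraries (SD, n = 3 each). LAMB3 followed, with 40.9 ± 3.59 FPKM in siSF3B6 libraries and 37.5 ± 3.55 FPKM in siNC libraries, and in the siNC libraries these neighbours overlapped. In the siNC libraries LAMB2, PLOD3, COL6A1, LAMC1 and LAMA5 came next, at means of 24.1 to 26.0 FPKM; all of these ranges overlapped each other except LAMB2, which lay above LAMC1. LAMA5 dropped out of that group in siSF3B6 libraries, with 15.8 ± 1.8 FPKM in siSF3B6 libraries and 24.1 ± 3.52 FPKM in siNC libraries. LOX had 19.1 ± 2.21 FPKM in siSF3B6 libraries and 9.68 ± 1.36 FPKM in siNC libraries, so it stood beside COL13A1 (5.58 ± 0.398 FPKM in siSF3B6 libraries and 9.74 ± 0.881 FPKM in siNC libraries) in controls but not in the knockdown. The deposited FPKM divide by gene models longer than the longest annotated transcript, so levels compare genes only roughly.

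**Figure D3:**
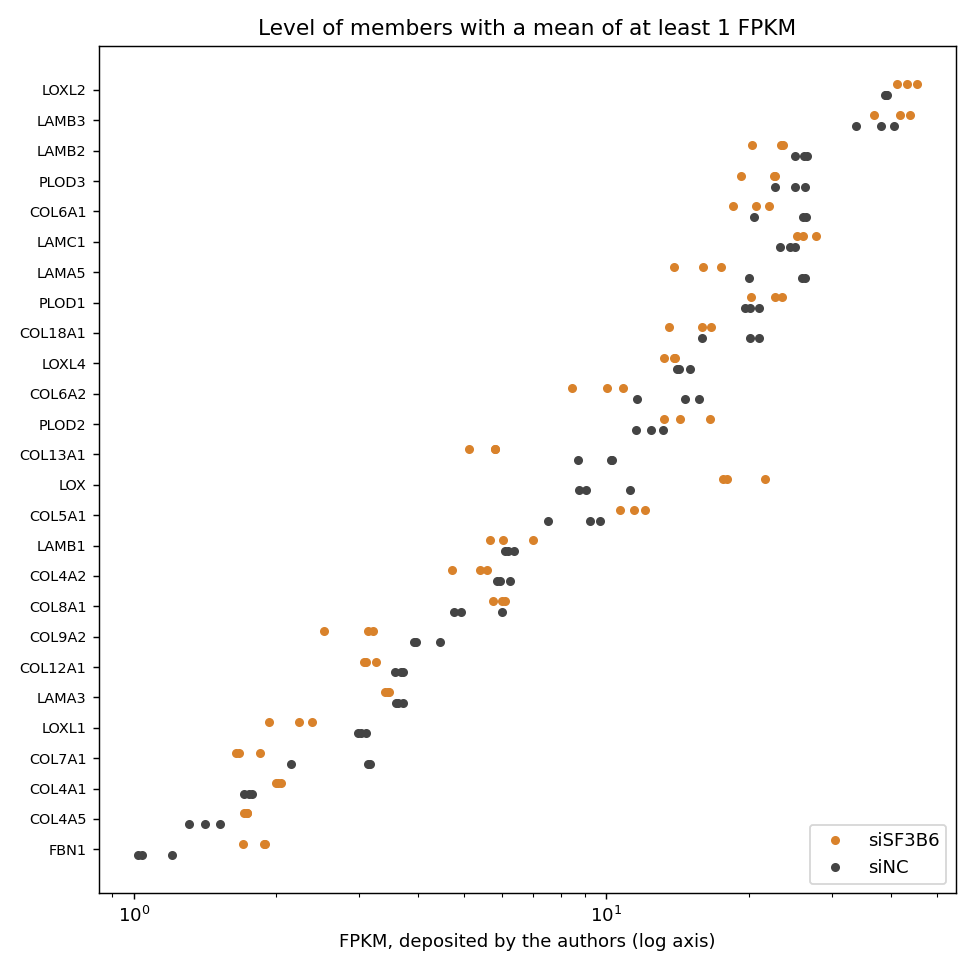
Deposited FPKM (horizontal log axis) of 26 members with a mean of at least 1 FPKM in siNC libraries, 1 point per library, siSF3B6 in orange above siNC in dark grey, ordered by the siNC mean. LOXL2 and LAMB3 are at the top and FBN1 at the bottom, and the orange points lie apart to the right for LOX and FBN1 and to the left for COL13A1.

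Ratios of related genes within a library do not depend on how the libraries are scaled, but they keep any effect of unlike GC content. For 6 pairs, chosen after their values had been seen, the ratio of reads per base of gene model was set between groups by an exact two-sided permutation test, whose smallest possible p with 3 against 3 libraries is 0.1, so no pair could pass 0.05. The LOX to LOXL2 ratio was 0.397, 0.408 and 0.525 in siSF3B6 libraries, against 0.234, 0.223 and 0.287 in siNC libraries, a 1.78-fold difference of geometric means. The LAMA5 to LAMA3 ratio was 5.06, 4.72 and 4.01 in siSF3B6 libraries, against 7.36, 7.17 and 5.4 in siNC libraries. In these pairs the groups did not overlap: LOX was higher relative to LOXL2, and LAMA5 lower relative to LAMA3, in every siSF3B6 library.

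The COL4A1 to COL4A2 ratio, of RNAs whose chains join in the same type IV trimer, was 0.36, 0.379 and 0.426 in siSF3B6 libraries, against 0.284, 0.292 and 0.293 in siNC libraries. The COL6A1 to COL6A2 ratio was 2.03, 2.06 and 2.19 in siSF3B6 libraries, against 1.67, 1.81 and 1.77 in siNC libraries. The PLOD2 to PLOD3 ratio was 0.634, 0.582 and 0.857 in siSF3B6 libraries, against 0.526, 0.44 and 0.548 in siNC libraries. These did not overlap either, so 5 of the 6 pairs gave the smallest p (exact permutation p = 0.1, 0.12 adjusted over the 6). Because the pairs were chosen after their values had been seen, that p only restates the lack of overlap. Among all single genes tested, the groups did not overlap for 52.1%. The LAMB3 to LAMB1 ratio was 7.26, 7.37 and 5.28 in siSF3B6 libraries, against 6.4, 6.25 and 5.45 in siNC libraries, with the third library of each group low, and overlapped (exact permutation p = 0.6, adjusted 0.6). In the 5 pairs without overlap the gene with less GC in its longest transcript was the relatively higher one. PLOD2 had 34.4% and PLOD3 61.7% GC, LOX 39.6% and LOXL2 58.2%, and LAMA5 66.4% and LAMA3 50.7%. LAMB3 had 58.9% and LAMB1 49.5%. With the GC and length offset PLOD2 had a log2 fold change of 0.07 and PLOD3 turned positive. For PLOD2 the 34.4% GC used there is that of a form that does not encode the whole chain. The part of GC content in the ratios was not tested.

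**Figure D4:**
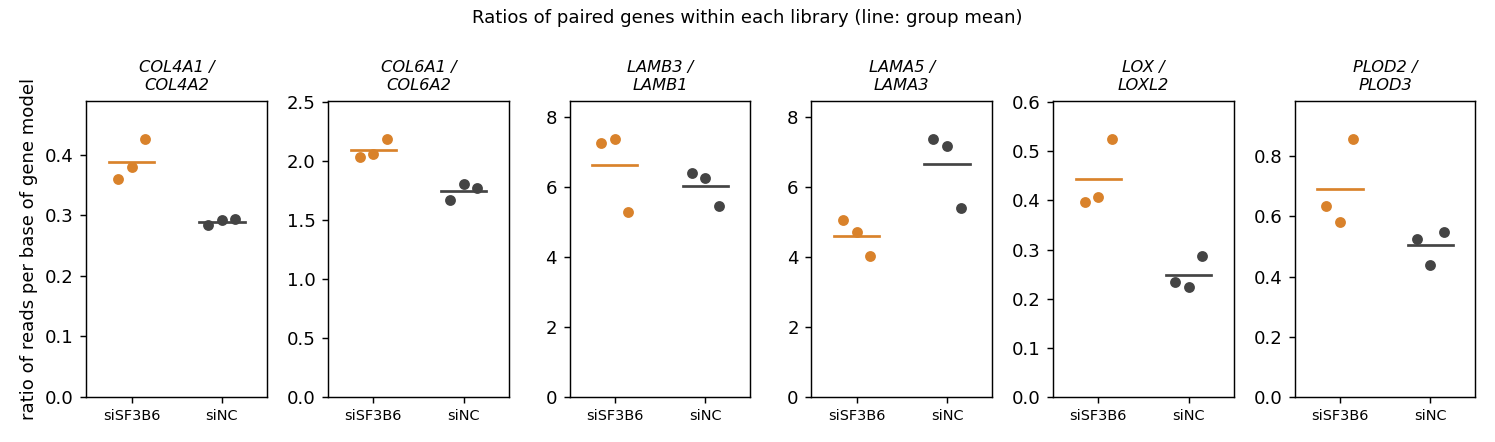
Ratio of reads per base of gene model between the genes of each of 6 pairs (vertical axes, from 0), 1 point per library in replicate order, siSF3B6 left and siNC right, with lines at the group means. The groups are apart in 5 pairs and overlap for LAMB3 to LAMB1.

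Members called lower were richer in GC than members called higher. The longest annotated transcripts (GENCODE release 29, GRCh38) of the 7 lower members held 59.0 to 67.6% GC with a median of 64.8%, and those of the 11 higher members 34.4 to 60.3% with a median of 50.5%. For COL1A2 and PLOD2 that transcript has 8 and 4 exons and is not the form that encodes the whole chain. The GC and length offset used the same transcripts, so the offset values of COL1A2 and PLOD2 rest on those forms. Of the 17 tested members with at least 60% GC, COL5A1 alone was called higher and 6 were called lower; of the 29 below, 10 were called higher and COL13A1 alone lower. Across all tested protein-coding genes the same held: of 2011 with at least 60% GC, 114 were called higher and 807 lower. Spearman's rho between log2 fold change and GC content was -0.53 over the 46 tested members and -0.39 over 13451 protein-coding genes, given as descriptions because genes of 1 set of libraries share depth and base composition. With the GC and length offset COL9A2, LOXL1, COL6A2, COL27A1 and PLOD2 lost their calls, as did COL5A2 at a log2 fold change that hardly differed (0.95, edgeR adjusted p = 0.0549, against 0.99, adjusted p = 0.0485, without the offset), and PLOD1, LAMB3, LAMC1, COL6A3, COL1A1 and COL12A1 gained one; whether GC content acts in the libraries or in the cells was not tested.

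**Figure D5:**
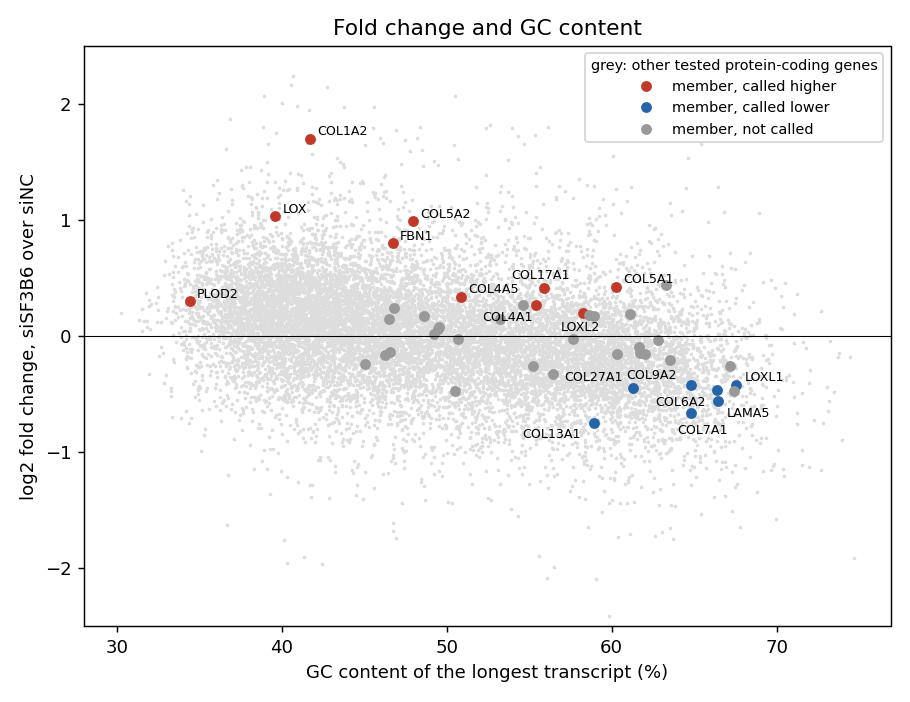
Log2 fold change of siSF3B6 over siNC (vertical axis) against GC content of the longest annotated transcript (horizontal axis, %), with 45 tested members coloured by call and other tested protein-coding genes in light grey; genes beyond the axis limits are not drawn. The blue points, called lower, lie at the GC-rich end with the exception of COL13A1 at 59.0%.

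The stretches before the starts were compared through 5 short motifs, searched on both strands in the 250 bases before each RefSeq start. Of the 66 members 50 matched an entry of that table, 37 of them tested and 14 called. CCAAT was found for 5 of the 7 higher members with an entry, 0 of the 7 lower members and 4 of the 23 uncalled ones, beside 32.0% of 35116 windows of all genes. The windows are not all separate: the CCAAT bases of COL4A1 and COL4A5 are also counted for their divergent neighbours COL4A2 and COL4A6, which were not called. ACGTG was found for 3 of 7, 0 of 7 and 4 of 23, beside 18.5%. GGGCGG was found for 4 of 7, 5 of 7 and 19 of 23, beside 42.6%. TATAAA was found for 1 of 7, 3 of 7 and 1 of 23, beside 10.7%, and TGANTCA, the AP-1 site, for 0 of 7, 0 of 7 and 2 of 23, beside 6.57%. These are matches of letters and no record of binding, and a member with several starts counts as having a motif where any of its windows does.

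Genes that act with the members were read from lists. Of 30 tested genes for the folding and processing of collagen, 9 were called higher and 4 lower (median log2 fold change 0.15). COLGALT2, a collagen galactosyltransferase, averaged 114 ± 2.89 CPM in siSF3B6 libraries and 71.9 ± 2.23 CPM in siNC libraries (SD, n = 3 each; log2 fold change 0.66, SE 0.074, edgeR adjusted p = 2.37e-05). FKBP7, a prolyl isomerase of the endoplasmic reticulum, averaged 17.1 ± 0.625 CPM in siSF3B6 libraries and 10.1 ± 1.29 CPM in siNC libraries (log2 fold change 0.75, SE 0.11, edgeR adjusted p = 0.000143). P4HA2, an alpha subunit of prolyl hydroxylase, averaged 135 ± 2.59 CPM in siSF3B6 libraries and 87.7 ± 5.11 CPM in siNC libraries (log2 fold change 0.62, SE 0.077, edgeR adjusted p = 4.73e-05). These enzymes were higher, while ADAMTS14, a procollagen peptidase, fell (-0.57) and so did the collagen chaperone SERPINH1 (-0.54, edgeR adjusted p = 0.000364), named here after its value was seen.

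Among 19 tested receptors of collagen and laminin, 5 were called higher and 3 lower (median 0.15). ITGA2, the alpha chain of a collagen-binding integrin, averaged 222 ± 24.7 CPM in siSF3B6 libraries and 135 ± 13.7 CPM in siNC libraries (log2 fold change 0.71, SE 0.098, edgeR adjusted p = 0.000103). ITGB1, the beta chain that most matrix-binding integrins share, averaged 699.8 ± 82 CPM in siSF3B6 libraries and 501 ± 7.1 CPM in siNC libraries (log2 fold change 0.48, SE 0.093, edgeR adjusted p = 0.00116). The other integrin chains called are named here with their list. ITGA6 (0.29) and ITGA1 (0.23) were higher, while ITGA3 (-0.31, edgeR adjusted p = 0.0179) and the scarce ITGA7 (-1.17, mean 0.75 CPM) were lower. ITGA3 averaged 874 CPM in siSF3B6 libraries and 1082 CPM in siNC libraries. Of the syndecans, cell surface proteoglycans that bind matrix, SDC4 was higher (0.39) and SDC1 lower (-0.34). Of 10 tested basement membrane partners 1 was called higher and 2 lower (median -0.14); the netrin NTN4, which binds laminin gamma chains, averaged 69.3 ± 8.6 CPM in siSF3B6 libraries and 43.8 ± 3.65 CPM in siNC libraries (log2 fold change 0.66, SE 0.1, edgeR adjusted p = 0.000207).

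Among 15 tested partners of elastic fibres and microfibrils, 4 were called higher and 4 lower (median -0.09). LTBP4, a binding protein of latent TGF-beta that sits on fibrillin microfibrils, averaged 52.2 ± 5.61 CPM in siSF3B6 libraries and 88.9 ± 18.4 CPM in siNC libraries (log2 fold change -0.77, SE 0.13, edgeR adjusted p = 0.000537). ADAMTSL4, which also associates with microfibrils (-0.68), and EMILIN2 (-0.55) were lower, and EFEMP1 was higher (0.47), while FBN1 rose as given above. Of 17 tested matricellular and fibril-associated proteins 8 were called higher and 2 lower (median 0.27): CCN1 (0.67) and CCN2 (0.39), targets of the YAP coactivator, were higher, and THBS3 (-0.40) and MATN2 (-0.36) lower. These counts stand beside the 20.8% of all genes called higher and 20.0% called lower. SPARC is counted as higher both here and among the genes for collagen folding. It had 22, 141 and 29 reads in siSF3B6 libraries, against 14, 26 and 24 reads in siNC libraries. The groups overlapped for SPARC, and most of its siSF3B6 reads were in library 2.

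Marker lists of the line and of other cell types gave the following counts, beside the 20.8% of all genes called higher and 20.0% called lower. Of 11 tested mesenchymal markers of the line 6 were called higher (SNAI2 0.66, ANXA1 0.56, CAV1 0.42 and PLAU 0.40 among them) and 5 were not called. Of 5 tested epithelial markers EPCAM (1.09), CDH1 (0.56) and ESRP2 (0.43) were called higher, while CLDN4 (-0.20) and CLDN3 (-0.16) were not called. The epithelial list summed to 31.08 to 35.19 FPKM in siSF3B6 libraries, against 31.25 to 34.27 FPKM in siNC libraries. Of 6 tested fibroblast and smooth muscle markers, TAGLN (0.73) and LUM (0.76) were higher and PDGFRB (-0.49) lower. TAGLN had 0.93, 1.46 and 0.79 FPKM in siSF3B6 libraries, against 0.72, 0.60 and 0.66 FPKM in siNC libraries. Its highest value was thus in siSF3B6 library 2, which also held the most reads of the stromal genes described above. Both tested endothelial markers, PECAM1 (-0.34) and KDR (-0.46), were lower, and of 3 tested leukocyte markers CD68 (0.71) and PTPRC (1.04) were higher. The third leukocyte marker, CD14 (-0.09), was not called. It had 5.72 to 6.75 FPKM in siSF3B6 libraries and 5.96 to 7.55 FPKM in siNC libraries, most of the leukocyte sum given below. The groups overlapped for CD68, with 1.44, 1.47 and 1.30 FPKM in siSF3B6 libraries, against 0.68, 0.56 and 1.41 FPKM in siNC libraries. They also overlapped for PTPRC, which had 17, 51 and 45 reads in siSF3B6 libraries, against 15, 21 and 17 in siNC libraries. The endothelial list summed to 1.03 to 1.23 FPKM in siSF3B6 libraries, against 1.48 to 1.64 FPKM in siNC libraries, and the leukocyte list to 7.18 to 8.24 FPKM, against 7.44 to 8.36 FPKM. CDH5, CLDN5 and CD3E, which define endothelial cells and T cells, were at 0.06 FPKM or less in every library, and the part of these markers in the members' changes was not tested.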

How the data were processed

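The authors deposited read counts per gene and FPKM for 6 libraries of MDA-MB-231 cells, per the file headers; the alignment was to hg38 with HISAT2, and DESeq2 is named too, per the submitters' processing notes, without versions. Which counter was used, and with what strand setting, is not given in these sources. Libraries were grouped by their titles. The counts were tested with edgeR 4.0.16 in R 4.3.3 (filterByExpr, TMM factors, quasi-likelihood test, no replicate block) over 16869 genes, with Benjamini-Hochberg adjustment and a threshold of 0.05. SE is the absolute log2 fold change over the square root of F. The script was tested on simulated data. The alternatives were DESeq2 1.42.0, limma 3.58.1 (voom, and log2 of the deposited FPKM plus 1 or 0.1 for genes with a mean of at least 0.5 FPKM), other scalings and filters, the replicate block, a lowess offset (span 0.3) for GC content and length from GENCODE 29, and fits without single libraries.

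The tested members are named, except that results for some genes are not reported here; values in every library are given for members of at least 5 CPM, for SF3B6, and for scarce members whose reads bear on a result. From each list, up to 4 called genes of at least 5 CPM with the largest change are named, with others said to be named after their values were seen or named with their list. The members and lists were chosen with earlier results of these data known. Upstream sequences came from RefSeq (GRCh38.p14), of which only windows with no annotated exonic base, or the part before the first exon, are printed.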

Additional observations from a re-analysis of the deposited data

How the results depend on the processing

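DESeq2, limma-voom and RLE factors gave 10, 11 and 11 members higher and 7 lower each. The counts of calls moved most with the scaling and the control libraries. Members called higher numbered 5 with library size only, 6 and 6 with limma on log2(FPKM + 1) and log2(FPKM + 0.1), 5 with siNC replicate 3 as the lone control and 6 to 11 without 1 library. Members called lower numbered 12 with library size only, 4 with the GC and length offset, 4 with that offset and the replicate block, 2 with siNC replicate 3 as the lone control, 12 with the libraries numbered 1 and 2 only and 6 to 9 without 1 library. All genes called numbered 2498 with the lone control, which assumes that the lone library varies like the siSF3B6 libraries, against 6889 in the main analysis and 5044 to 7571 without 1 library. The cause of these shifts was not tested.

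The replicate numbers were not taken to pair the libraries: deviations of same-numbered libraries correlated at 0.04, 0.11 and 0.14, although every library correlated best with its own number. The fit with the replicate block called 15 members higher and 11 lower (8052 genes in all) and lost no call.

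Direction turned only in uncalled members. With the GC and length offset these were COL16A1 (0.19), LOXL4 (0.12), LAMB2 (0.0202), COL8A2 (0.11), PLOD3 (0.0900), COL4A3 (-0.0047), COL4A2 (0.0577), COL6A1 (0.0494) and COL18A1 (0.0677), and with the block added 0.18, 0.12, 0.0207, 0.0825, 0.0901, -0.0171, 0.0603, 0.0509 and 0.0683 in the same order. With the lone control they were COL6A1 (0.0529), LAMA4 (0.0418), LAMA2 (-0.16), COL4A3 (-0.0593), COL8A2 (0.97), COL16A1 (0.0527) and COL18A1 (0.0086). With the libraries numbered 1 and 2 only they were LOXL4 (0.0211), COL16A1 (0.0407), LAMB1 (-0.0446) and COL4A6 (-0.0477); with library size only COL4A3 (-0.087), LAMB1 (-0.0464) and COL4A4 (-0.0300); with limma on log2(FPKM + 0.1) LAMB1 (-0.00058); and with limma-voom COL4A3 (-0.0033). Without 1 library the log2 fold changes ran from -0.45 to 0.35 for COL8A2, from -0.18 to 0.15 for COL4A3, from -0.19 to 0.0768 for COL16A1, from -0.40 to 0.0293 for COL24A1, from -0.27 to 0.0441 for LAMA4, from -0.0164 to 0.34 for LAMA2 and from -0.0396 to 0.12 for LAMB1.

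Depth limits the 15 tested members under 5 CPM, of which COL1A2 and COL5A2 were called, and the 20 untested ones, of which COL3A1 and COL21A1 were called in the fit without the low-count filter; for the rest no difference was detectable at this depth in those fits.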
